A study of Mus musculus with 16 samples.

Results

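The genes described here are 42 genes of DNA replication and S phase, chosen by name for their textbook roles, out of 25719 genes in the table. They were measured by bulk RNA sequencing in the whole liver of 16 male mice, which were 8 to 12 weeks old when feeding began. Wild-type mice (WT, strain C57BL6J) and mice of a whole-body Klrk1-/- line (labelled NKG2D) were kept for 3 weeks on normal chow (NCD) or on the steatosis-steatohepatitis diet (SSD), a feed rich in fat, fructose and cholesterol. Klrk1 encodes NKG2D, an activating receptor of NK cells and some T cells. There were 4 WT NCD mice (numbered 1, 2, 3 and 5), 5 WT SSD mice, 4 Klrk1-/- NCD mice and 3 Klrk1-/- SSD mice. The question put to the members was whether SSD moved them in each genotype, and whether the genotypes differed.

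Before a cell copies its DNA, the origin recognition complex, Cdc6 and Cdt1 load the MCM2-7 helicase onto origins, a step called licensing. At the start of S phase the Cdc7-Dbf4 kinase, Cdc45, the GINS complex and Mcm10 turn the loaded helicase into a moving fork, where primase and the polymerases work with the sliding clamp Pcna and its loader. Many of these genes are transcribed by E2F factors once cyclin D and cyclin E kinases release them from the retinoblastoma protein. In the healthy adult liver most hepatocytes are quiescent, and these transcripts are known to rise in regeneration and wherever immune or stromal cells divide. In a bulk sample, fewer cells of a type and less RNA per cell cannot be told apart, so each value below is a level in the whole liver.

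Reads assigned to genes numbered 19892025 to 28936707 in each library. Klrk1 lay at 20.1 to 71.1 normalized counts in WT mice and at 0.966 to 8.71 in Klrk1-/- mice, without overlap between the labelled genotypes. A pair of libraries stood apart: Klrk1-/- NCD mice 2 and 3 had 101 and 47.3 normalized counts of Rilpl1 and 48.5 and 16.2 of Gdpd3, near the WT levels (45.6 to 101 and 7.82 to 31.3), whereas the other 5 Klrk1-/- mice had 591 to 950.3 and 229 to 522. These mice also had the highest Klrk1 among the knockouts, 4.98 and 8.71, but at a depth of few reads. Klrk1-/- SSD mouse 3 was close at 4.29. Of the 4 Klrk1-/- NCD mice 2 had 3 reads or fewer of Klrk1, as had 2 of the 3 Klrk1-/- SSD mice. Whether Klrk1-/- NCD mice 2 and 3 are of the same line and genotype as the other Klrk1-/- mice was not tested. The calls of members that rest on Klrk1-/- NCD mice are given with and without both of them. All 10 hepatocyte markers were detected in every group, with summed levels of 1624790 to 3404650 per mouse. Nothing in the sources used here says that counting used strand, and 20 of the 42 members share exon bases with a gene on the other strand. Beside the overlaps given below, these include called members. They are Rrm2 (1437 bases with Gm59512), E2f8 (1128 with Gm2788), Lig1 (444 with Zswim9) and Rfc4 (368 with Eif4a2, 278 with 6330408M09Rik). Prim1 (194 with Gm66417) and Pole (78 with Gm15792) share fewer. The part of such reads in their values was not tested.

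The members spanned a wide range of levels. Per kilobase of feature length, and averaged over the 16 mice, Mcm10 was highest at 933 normalized counts per kb, followed by the thymidine kinase Tk1 at 503, Pcna at 471, cyclin D1 (Ccnd1) at 412 and Mcm7 at 369. The order differed by group: in WT SSD mice Ccnd1 was highest at 785, followed by Mcm10 at 646 and Pcna at 566, with Tk1 at 319. Without WT SSD mouse 1 Mcm10 was above Ccnd1 there, at 709 and 585. At the other end stood Orc1 at 1.63, Cdc6 at 3.15 and claspin (Clspn) at 3.90 normalized counts per kb. Orc1 never exceeded 3.02 normalized counts in any mouse and could not be tested, nor could Clspn. Cdc6 could be tested in the diet comparison of WT mice and the genotype comparison on SSD. Its group mean reached the minimum of 10 only in WT SSD mice, at 16.3.

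In WT mice, 12 members were called higher on SSD, 5 of them licensing genes. A gene was called changed at an adjusted p under 0.05 (limma, Benjamini-Hochberg over all 13091 genes tested) with a fold change over 1.5 in either direction. Of 40 members tested, 12 were called higher, where the share of all genes was 11.9%, and 2 were called lower, where it was 7.32%. The higher count stood above the share of all genes, and the lower count was near it. The median log2 fold change of the members was 0.37, and that of all genes tested was 0.00. In 14 of the 40 members every SSD mouse lay above every NCD mouse, as did 13.5% of all genes.

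Licensing held the most called members, 5 of 9 tested (Mcm5, Mcm6, Mcm3, Mcm2 and Cdt1), with a median log2 fold change of 0.83. Mcm5 (ENSMUSG00000005410, GRCm39 chr8:75836197-75855067), a subunit of the MCM2-7 ring, had 41.0, 54.4, 45.6 and 40.8 normalized counts in the WT NCD mice and 119.6, 107, 84.7, 119.9 and 66.9 in the WT SSD mice. The groups did not overlap, and Mcm5 rose from 45.5 ± 6.34 (SD, n = 4) to 99.7 ± 23.2 (SD, n = 5), a log2 fold change of 1.09 (SE 0.20, limma adjusted p = 0.00153, exact permutation p = 0.0159). For Mcm6 (ENSMUSG00000026355, chr1:128259327-128287401) the NCD values were 80.8, 95.6, 67.8 and 88.3 and the SSD values 246, 175, 156, 249 and 135. Again the groups were apart, with a log2 fold change of 1.17 (SE 0.20, limma adjusted p = 0.00092), and the exact permutation p of 0.00794 is the smallest that 4 against 5 mice can give. Mcm3 (ENSMUSG00000041859, chr1:20873192-20890536) went from 77.2, 92.6, 92.5 and 76.1 to 205, 164, 155, 174 and 117, a log2 fold change of 0.92 (SE 0.16, limma adjusted p = 0.00128).

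The remaining licensing genes split. Cdt1, the loader that brings the helicase to origins, rose by 1.15 on the log2 scale (SE 0.18, limma adjusted p = 0.0007), from a range of 24.8 to 36.2 to one of 55.2 to 82.6 normalized counts. Mcm2 rose by 0.66 (SE 0.15, adjusted p = 0.00642) without overlap between groups, and its fold lost the limit of 1.5 without WT SSD mouse 1, at a log2 fold change of 0.58. Mcm7 (chr5:138162845-138170684), the MCM subunit with the highest level, had 338, 320.2, 353 and 352 normalized counts on NCD and 385, 402, 391, 507 and 372 on SSD. Its groups did not overlap either, but the log2 fold change was 0.26 (SE 0.10, adjusted p = 0.0683) and it was not called. Mcm7 shares 348 exon bases with Ap4m1 and 344 with Cops6 on the other strand. Mcm4, Orc6 and Cdc6 were not called, with log2 fold changes of 0.23, 0.11 and 0.83.

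**Figure D1:**
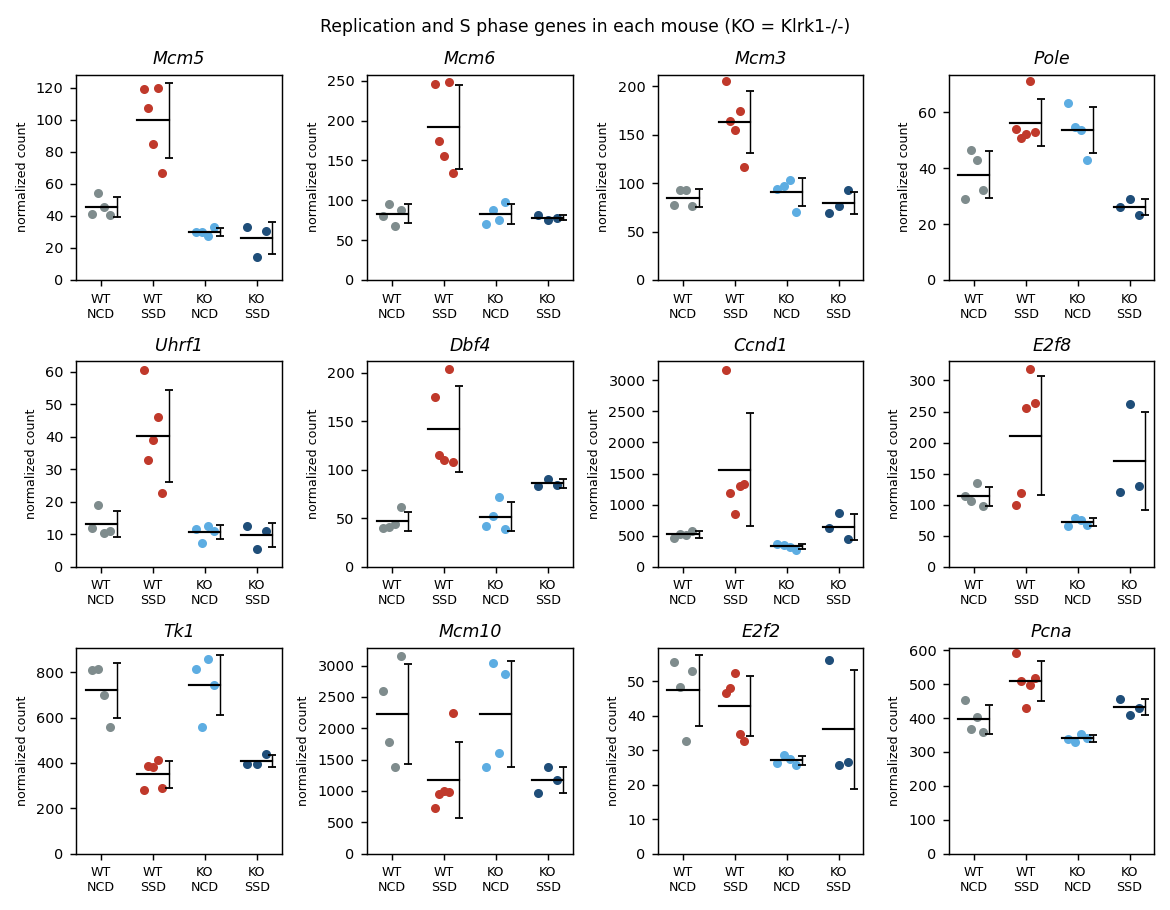
Normalized counts (linear axes from 0) of 12 members in each mouse by group, with KO for Klrk1-/-, a horizontal line at the group mean and bars of 1 SD beside the points. WT SSD mice lie above every other mouse for Mcm6 and Mcm3, with Mcm6 at 135 to 249 there, whereas Tk1 and the mean of Mcm10 are lower on SSD in both genotypes.

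Of the 3 chromatin copying genes, which lay nucleosomes and DNA methylation marks onto new DNA, 2 were called higher. Uhrf1 (ENSMUSG00000001228, chr17:56610321-56630486), which binds hemimethylated DNA and recruits the maintenance methyltransferase, had 12.1, 19.1, 10.4 and 11.0 normalized counts in WT NCD mice and 60.4, 32.9, 39.0, 46.2 and 22.9 in WT SSD mice. It rose without overlap by 1.51 on the log2 scale (SE 0.31, limma adjusted p = 0.00301). Chaf1a (chr17:56347439-56379289), the large subunit of chromatin assembly factor 1, had 33.8, 40.3, 32.6 and 19.9 on NCD and 77.1, 49.8, 60.0, 65.7 and 44.9 on SSD. It rose by 0.91 (SE 0.24, adjusted p = 0.012), and its opposite-strand neighbour Ubxn6, with which it shares 4648 exon bases, had a log2 fold change of -0.10 (adjusted p = 0.381). Chaf1b (chr16:93680789-93703003), its partner subunit, was not called: 32.6, 31.2, 30.0 and 35.3 on NCD overlapped with 63.1, 45.6, 36.2, 45.3 and 24.5 on SSD (log2 fold change 0.34, adjusted p = 0.316).

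Helicase activation and origin firing had 1 member called in each direction among 8 tested, with a median log2 fold change of 0.15. Dbf4 (chr5:8446973-8472716), the regulatory subunit of the Cdc7 kinase that fires origins, had the largest log2 fold change among the members tested. It went from 39.8, 41.3, 44.3 and 61.8 normalized counts to 175, 115, 110.4, 203 and 108 with no overlap, a log2 fold change of 1.55 (SE 0.22, limma adjusted p = 0.00031). That rank holds on the scale of log2(normalized count + 1), which understates the change of low genes, and Uhrf1 was close at 1.51. Cdc7 itself, at 2.61 to 15.4 on NCD and 10.1 to 28.4 on SSD, was not called (log2 fold change 1.14, adjusted p = 0.0986). Gins4 (chr8:23716632-23727675), a subunit of the GINS complex and the second highest of this role, showed no difference beyond its spread: 288, 222, 232 and 255 on NCD and 239, 275, 245, 260.3 and 209.8 on SSD. Clspn, a fork and checkpoint adaptor too low to test, had 1.21, 4.03, 0 and 5.52 on NCD and 17.3, 7.60, 16.2, 20.4 and 8.98 on SSD, so that its groups were apart at a depth of few reads.

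Mcm10 (ENSMUSG00000026669, chr2:4994525-5017602), which joins the helicase to the polymerases at the fork, went the other way and varied widely between mice. Its normalized counts were 2598, 1786, 1383 and 3147 in WT NCD mice and 723, 953, 1002, 976 and 2248 in WT SSD mice. All SSD mice but mouse 5 lay below every NCD mouse, and the log2 fold change was -0.96 (SE 0.30, limma adjusted p = 0.0283, exact permutation p = 0.0556). The call depended on settings: Mcm10 was no longer called by DESeq2, without WT NCD mouse 1 or 5 or WT SSD mouse 2, 3 or 4, nor with every mouse scaled to the same total, where the log2 fold change was -0.62 (adjusted p = 0.0878). Without WT SSD mouse 5 it was -1.23. Mcm10 shares no exon base with another gene in the annotation.

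Of 9 polymerase, clamp and Okazaki fragment genes, 2 were called higher, Prim1 and Lig1, with a median of 0.35 for the role. Lig1, the ligase that seals Okazaki fragments, had 39.7 to 62.7 normalized counts on NCD and 88.2 to 127 on SSD (log2 fold change 1.09, SE 0.18, limma adjusted p = 0.0008). Prim1, the catalytic subunit of primase, rose from 45.8 to 57.4 up to 94.7 to 116 (0.93, SE 0.14, adjusted p = 0.00044). Neither gene overlapped between the diets. Pole (ENSMUSG00000007080, chr5:110434172-110485340), the catalytic subunit of the leading strand polymerase epsilon, had 28.9, 46.3, 43.0 and 32.0 on NCD and 53.8, 50.7, 52.3, 71.1 and 53.1 on SSD. Its groups were also apart (log2 fold change 0.58, adjusted p = 0.0373), yet its fold of 1.498 fell just short of the limit. Pcna (chr2:132091082-132095234) had 455, 367, 403 and 359.7 on NCD and 593, 510.3, 429, 498 and 518 on SSD, a log2 fold change of 0.36 (adjusted p = 0.0243) below the fold limit. Rfc5 (chr5:117516168-117527112), a clamp loader subunit that shares 2905 exon bases with Wsb2, had 176, 142, 119 and 137 against 158, 139, 136, 129 and 112 and was not called.

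Nucleotide supply had 1 member called in each direction among 5 tested, with a median of 0.14. Rrm2, the S phase subunit of ribonucleotide reductase, was called higher (log2 fold change 0.86, SE 0.28, limma adjusted p = 0.0336), but its groups overlapped, with 100.4 to 158 normalized counts on NCD and 105 to 364 on SSD. That call was lost without any of WT NCD mice 1, 3 and 5 and WT SSD mice 2, 3 and 4. It was also lost with the replicate block, a fit that leaves out WT SSD mouse 4 as well. Its partner Rrm1 reached an adjusted p of 0.0101 at a log2 fold change of 0.51, below the fold limit. Tk1 (ENSMUSG00000025574, chr11:117706352-117716918), the cytosolic thymidine kinase of the salvage route, fell: it had 812, 815, 697 and 557 on NCD and 279.7, 386, 382, 412 and 289.8 on SSD. Every SSD mouse lay below every NCD mouse, and the log2 fold change was -1.04 (SE 0.15, limma adjusted p = 0.00033). Tk1 shares 121 exon bases with Afmid, a kynurenine pathway enzyme on the other strand, whose log2 fold change was -0.94 (adjusted p = 0.000216), and 630 with Syngr2, whose value was -0.01. The part of Afmid reads in the Tk1 values was not tested. Dut (chr2:125089110-125100528), which removes dUTP, had 195, 161, 185 and 189 against 191, 213, 170.4, 199 and 167 and was not called.

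Among 6 G1/S genes, Ccnd1 alone was called. Ccnd1 (ENSMUSG00000070348, chr7:144483668-144493662), the D-type cyclin that opens the way into S phase, had 459, 529, 514 and 583 normalized counts on NCD and 3160.0, 1183, 852, 1307 and 1324 on SSD. The log2 fold change was 1.44 (SE 0.28, limma adjusted p = 0.00254), and 1.14 without WT SSD mouse 1, which lay far above the others. It shares 2315 exon bases with LTO1 on the other strand, whose log2 fold change was 0.17 (adjusted p = 0.223). E2f8 (chr7:48516177-48531344), a repressor E2F of the late cell cycle, had 115, 107, 134 and 98.2 on NCD and 99.6, 119, 256, 318 and 263 on SSD, and with this overlap it was not called (0.76, adjusted p = 0.0772). E2f2 (chr4:135899705-135923368), an activator E2F, had 55.5, 48.3, 32.6 and 53.0 against 46.5, 48.2, 52.3, 34.6 and 32.7 and was not called. The E-type cyclins Ccne1 and Ccne2 and E2f1 were not called, at log2 fold changes of 0.54, 0.39 and 0.19.

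With every mouse scaled to the same total, the all-gene median of this comparison moved to 0.34. Under it 22 members were called higher and 1 lower, against 3467 and 409 of all genes. The members' median was then 0.71. Fen1, Gins3, Rfc5, Rfc4, E2f2, Gins4 and Gins1 changed sign, all of them small and not called on the deposited scale, and no called member turned direction.

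Since 12 members were called higher together, the letters of E2F and CCAAT sites were looked for in their promoters. The windows, taken from RefSeq on GRCm38.p6, run from 250 bases before to 50 bases after each start, and 35 of the 42 members had 1 or more. The E2F letters searched were TTTCCCGC, TTTCGCGC, TTTGCCGC and TTTGGCGC on both strands, where palindromic stretches can give overlapping matches. They occurred in 14 of the 35 members (40%), in 4.55% of the 10187 genes tested that have a window and in 2.6% of all 27025 genes. Of the members called higher on SSD in WT mice 6 of 11 held them, and of those tested and not called higher 6 of 22. CCAAT occurred in 21 of 35 members (60%) against 42.9% and 41.1%, and the cell cycle homology region letters TTTGAA or TTCGAA in 10 of 35 (28.6%) against 16.7% and 21.7%. These shares are descriptions of letters, not of binding.

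**Figure D2:**
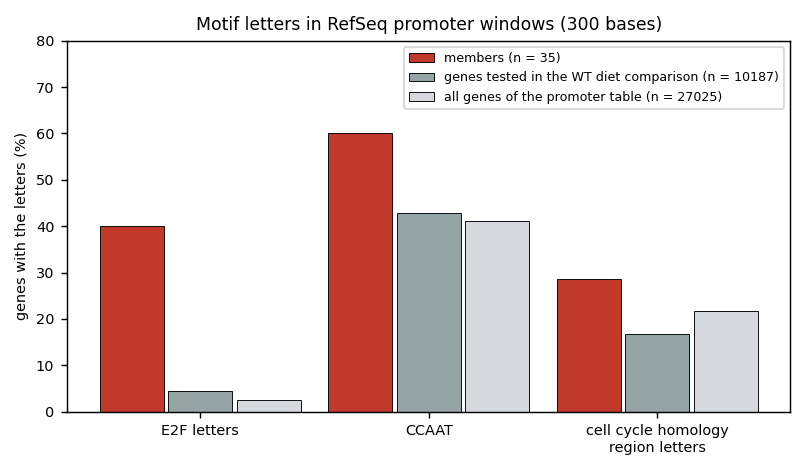
Percent of genes whose 300-base RefSeq promoter window holds each set of letters (y axis from 0), for the members with a window (n = 35), the genes tested in the WT diet comparison (n = 10187) and all genes of the promoter table (n = 27025). The gap is widest for the E2F letters, at 40%, 4.55% and 2.6%.

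The 200 bases before the start are shown for 3 members that rose and 2 that fell in WT mice, 5′ to 3′ on the gene's strand, with E2F letters and CCAAT boxes in capitals. They are Mcm5 at chr8:75109309-75109508 (plus strand), Mcm6 at chr1:128359706-128359905 (minus strand), Uhrf1 at chr17:56304113-56304312 (plus strand, the window of its 2 that holds E2F letters), Mcm10 at chr2:5012792-5012991 (minus strand) and Tk1 at chr11:117826015-117826214 (minus strand).
Mcm5: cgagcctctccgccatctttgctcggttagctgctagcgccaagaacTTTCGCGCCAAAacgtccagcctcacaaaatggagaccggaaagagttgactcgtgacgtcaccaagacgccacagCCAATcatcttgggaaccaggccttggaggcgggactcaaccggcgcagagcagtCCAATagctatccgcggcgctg
Mcm6: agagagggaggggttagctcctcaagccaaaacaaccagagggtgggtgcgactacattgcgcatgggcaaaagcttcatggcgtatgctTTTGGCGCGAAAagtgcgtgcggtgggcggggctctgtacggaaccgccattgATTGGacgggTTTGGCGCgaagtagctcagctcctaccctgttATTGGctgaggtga
Uhrf1: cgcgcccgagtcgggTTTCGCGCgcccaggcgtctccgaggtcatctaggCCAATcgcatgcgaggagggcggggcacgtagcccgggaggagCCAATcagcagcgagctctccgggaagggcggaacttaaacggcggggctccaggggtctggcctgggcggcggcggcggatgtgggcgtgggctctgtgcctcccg
Mcm10: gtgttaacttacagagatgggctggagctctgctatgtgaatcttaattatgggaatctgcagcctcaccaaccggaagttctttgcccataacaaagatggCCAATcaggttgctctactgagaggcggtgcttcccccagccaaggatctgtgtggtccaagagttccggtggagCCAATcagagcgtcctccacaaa
Tk1: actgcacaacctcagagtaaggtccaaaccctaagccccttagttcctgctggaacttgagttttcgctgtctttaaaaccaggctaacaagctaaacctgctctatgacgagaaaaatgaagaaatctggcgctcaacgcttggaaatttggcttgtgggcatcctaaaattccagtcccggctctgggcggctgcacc
Mcm5 carried 2 overlapping E2F matches that begin 153 and 149 bases before its start, and Mcm6 carried 3, which begin 110, 106 and 47 bases before its start. In Uhrf1 a single match began 185 bases before the start. Mcm10 showed CCAAT boxes at 98 and 23 bases before its start and no E2F letters, and Tk1 showed neither set in this stretch. No match says only that these letters are not in the window.

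In Klrk1-/- mice calls went in both directions. Of 39 members tested, 4 were called higher (Ccnd1, Cdt1, Dbf4 and E2f8), where 6.54% of all genes were, and 4 lower (Tk1, Mcm10, Pole and Rfc4), where 6.6% were. Both counts were close to those shares, and the median log2 fold change over the members was -0.04. Of 10 hepatocyte markers 4 were called lower, as were 2 of 7 B and plasma cell and 2 of 6 erythroid markers. Lower too was 1 of 8 T and NK cell markers. Called higher were 3 of 15 macrophage, 2 of 8 stellate cell and 1 of 6 cholangiocyte markers. The part of these cell types in the member changes was not tested. The MCM genes that rose in WT mice showed no difference beyond their spread here: Mcm5 had 29.9, 29.9, 27.4 and 33.2 normalized counts on NCD and 32.8, 14.5 and 30.9 on SSD (log2 fold change -0.28, limma adjusted p = 0.499). Mcm6 had 70.1, 88.3, 74.6 and 98.4 against 81.1, 74.7 and 78.0 (adjusted p = 0.756). Mcm3 had 94.2, 97.1, 103 and 70.1 against 69.5, 76.3 and 92.6 (adjusted p = 0.438). Uhrf1, at 11.5, 7.47, 12.4 and 11.1 against 12.6, 5.62 and 11.1, also stayed within its spread (adjusted p = 0.801). Without Klrk1-/- NCD mice 2 and 3 the same 4 members were called in each direction, with log2 fold changes of 0.98 for Ccnd1, 0.83 for Cdt1, 1.05 for Dbf4, 1.25 for E2f8, -0.93 for Tk1, -0.77 for Mcm10, -0.98 for Pole and -0.88 for Rfc4.

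Genes of G1/S control, licensing and origin firing made up the higher calls. Ccnd1 went from 368, 347, 326 and 268 normalized counts to 619, 859 and 447 with no overlap (log2 fold change 0.93, limma adjusted p = 0.00331). E2f8 went from 65.5, 78.4, 75.9 and 67.7 to 121, 262 and 129 (1.15, adjusted p = 0.00366). Cdt1 rose from 41.1 to 51.7 up to 75.4 to 102 (0.91, adjusted p = 0.00241). Dbf4 went from 42.5, 52.3, 72.1 and 39.4 to 83.1, 90.7 and 84.0 (0.76, adjusted p = 0.0174), a call that was lost when any of the 3 Klrk1-/- SSD mice was left out. With 4 against 3 mice the exact permutation test gives no p below 0.0286, and Ccnd1, E2f8 and Cdt1 reached it.

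Tk1 fell in this genotype too, from 816, 559, 857 and 744 to 394, 394 and 439.7 normalized counts (log2 fold change -0.84, limma adjusted p = 0.00083), and its neighbour Afmid had -0.58 (adjusted p = 0.000352). Mcm10 went from 1379, 3041, 1613 and 2866 to 969.6, 1389 and 1173, with overlap (-0.85, adjusted p = 0.0238). Its call was lost without Klrk1-/- NCD mouse 2 or 4, without Klrk1-/- SSD mouse 1 or 3, in a model of all 4 groups and under equal totals. Pole fell here, from 63.2, 54.7, 53.5 and 43.1 to 26.1, 28.9 and 23.1, with every SSD mouse below every NCD mouse (-1.01, adjusted p = 0.00343). Rfc4, a clamp loader subunit, fell from a range of 73.5 to 106 to one of 34.8 to 65.9 (-0.84, adjusted p = 0.0153), a call lost under equal totals and without Klrk1-/- SSD mouse 1 or 3. Without either of those mice 2 members were called lower. With every mouse scaled to the same total the median of all genes moved to 0.25, 7 members were called higher and 2 lower, where 2122 and 480 of all 12904 genes were, and 14 changed sign, among them Mcm2, Mcm3 and Mcm6. Pcna, at 338, 328, 352 and 342 against 457, 409 and 429, had a log2 fold change of 0.34 (adjusted p = 0.0138), under the fold limit.

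**Figure D3:**
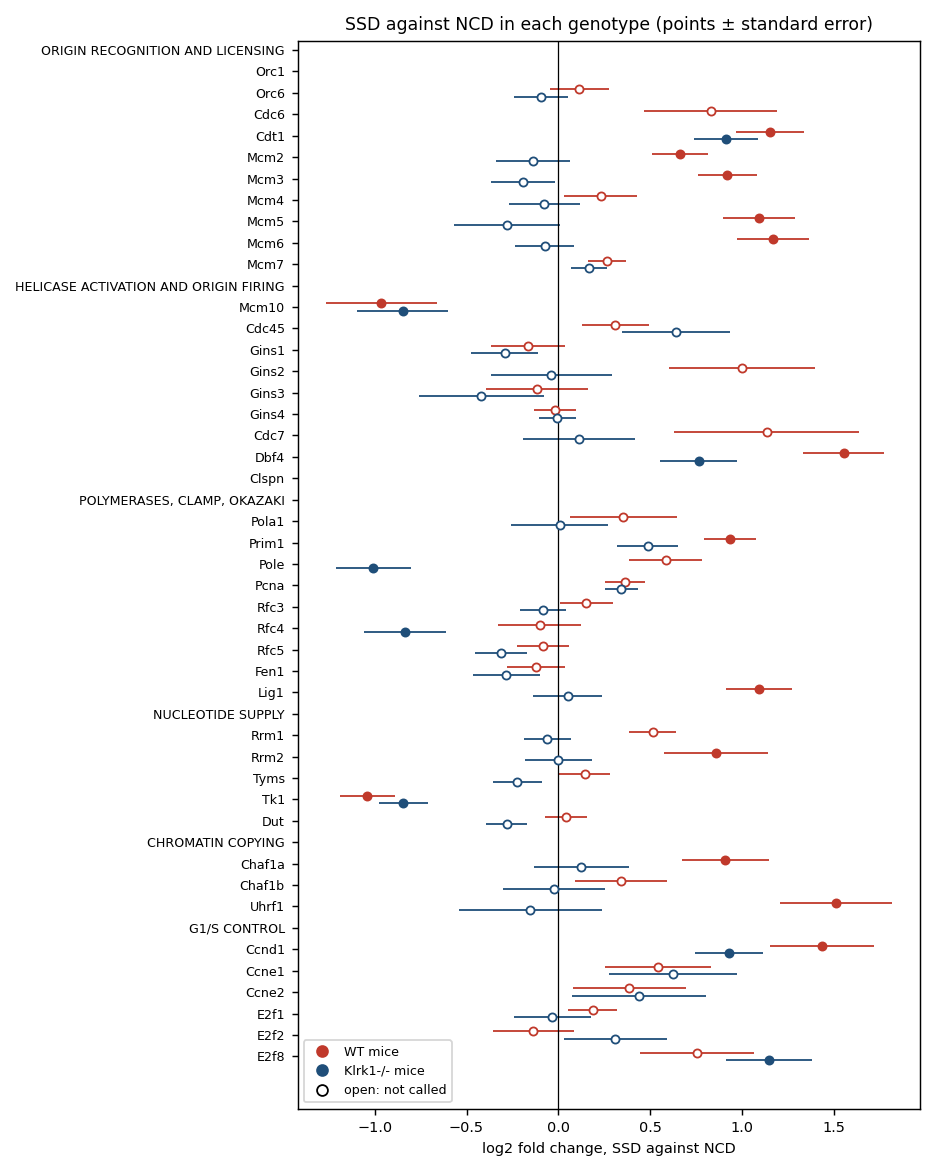
Log2 fold change of SSD against NCD (x axis, points ± standard error) for every member by role, in WT mice (red) and Klrk1-/- mice (blue), with filled points for called members and no point where a member was not tested. Of the helicase subunits, Mcm6 lies at 1.17 in WT mice and at -0.08 in Klrk1-/- mice, whereas Tk1 lies at -1.04 and -0.84 and Mcm10 at -0.96 and -0.85.

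On SSD, the members called between genotypes were all lower in Klrk1-/- livers. Of 40 members tested, 9 were called lower, where 1.42% of all 13116 genes were, and 0 were called higher, where 0.709% were. No member was called higher by limma, edgeR or DESeq2, and 0 had a positive difference at an unadjusted p under 0.05. The median log2 difference was -0.55, with 8 of the 40 above 0, against 0.00 for all genes. In 16 members every Klrk1-/- mouse lay below every WT mouse, as in 8.74% of all genes. By role, 4 of 9 licensing genes were called lower (Mcm5, Mcm6, Mcm3 and Mcm2), 2 of 9 polymerase and Okazaki genes (Pole and Lig1), 2 of 3 chromatin genes (Uhrf1 and Chaf1a), 1 of 5 nucleotide genes (Rrm1) and none of the 8 helicase activation genes or 6 G1/S genes. Clspn, not tested, was at 2.61 ± 1.46 normalized counts against 14.1 ± 5.54, with no overlap. All 15 monocyte and macrophage markers had negative differences in this comparison too (median -0.995), with Cd68 and Marco called lower, 10 of the 15 at an unadjusted p under 0.05 and summed levels of 4781 to 5878 against 5949 to 15724 normalized counts. Their part in the result was not tested.

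Mcm5 and Uhrf1 had the largest log2 differences among the members tested. Uhrf1 and Cdc6 had Klrk1-/- SSD means under the minimum of 10, at 9.77 and 4.88, and could be tested only through the WT SSD group. Mcm5 was at 26.05 ± 10.1 (SD, n = 3) normalized counts in Klrk1-/- SSD mice against 99.7 ± 23.2 (SD, n = 5) in WT SSD mice. The log2 difference was -1.94 (SE 0.29, limma adjusted p = 0.0114). Mcm6, at 77.9 ± 3.22 against 192 ± 52.6, differed by -1.25 (SE 0.21, adjusted p = 0.016), and Mcm3, at 79.5 ± 11.8 against 163 ± 32.1, by -1.01 (SE 0.18, adjusted p = 0.0214). Each of these had all 3 Klrk1-/- mice below all 5 WT mice, and the exact permutation p of 0.0179 is the smallest that 3 against 5 mice can give. Uhrf1 was at 9.77 ± 3.66 against 40.3 ± 14.1 (-1.93, adjusted p = 0.024), and Pole at 26.04 ± 2.88 against 56.2 ± 8.39 (-1.08, adjusted p = 0.0188). The other called members were closer to the threshold: Mcm2 at -0.85 (adjusted p = 0.0317), Rrm1 at -0.61 (0.041), Lig1 at -0.80 (0.048) and Chaf1a at -1.06 (0.0495). Members below -1 without a call were Cdc6 at -1.57 (adjusted p = 0.0775), Gins2 at -1.36 (0.101), Rrm2 at -1.19 (0.0812) and Ccnd1 at -1.18 (0.0984).

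These calls rest on few mice. Leaving out any of the 3 Klrk1-/- SSD mice left 1 called member, Mcm5, leaving out WT SSD mouse 2 or 3 left 3, and leaving out WT SSD mouse 4 left 4, whereas without WT SSD mouse 5 there were 13. Mcm5 was called under all 17 alternatives tried. Lig1 lost its call in 11 of 17 alternatives, Rrm1 in 9 of 17 and Chaf1a in 9 of 16. The replicate block, which here also left out WT SSD mice 4 and 5, removed Pole and Lig1. With edgeR 7 members were called lower, and Chaf1a and Lig1 were removed. Among the members not called were Tk1 at 409 ± 26.5 against 349.9 ± 60.7 normalized counts and Mcm10 at 1177 ± 209.9 against 1181 ± 607. Mcm7, at 465, 462 and 396 against 372 to 507, was not called either. Nor were Gins4 at 241, 260.2 and 277, Dut at 194, 196 and 162, Rfc5 at 157, 146 and 173, and Chaf1b at 40.6, 29.7 and 36.0. Under equal totals 10 members were called lower, and Mcm7, Gins4, Gins1, Orc6 and Mcm10 changed sign.

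**Figure D4:**
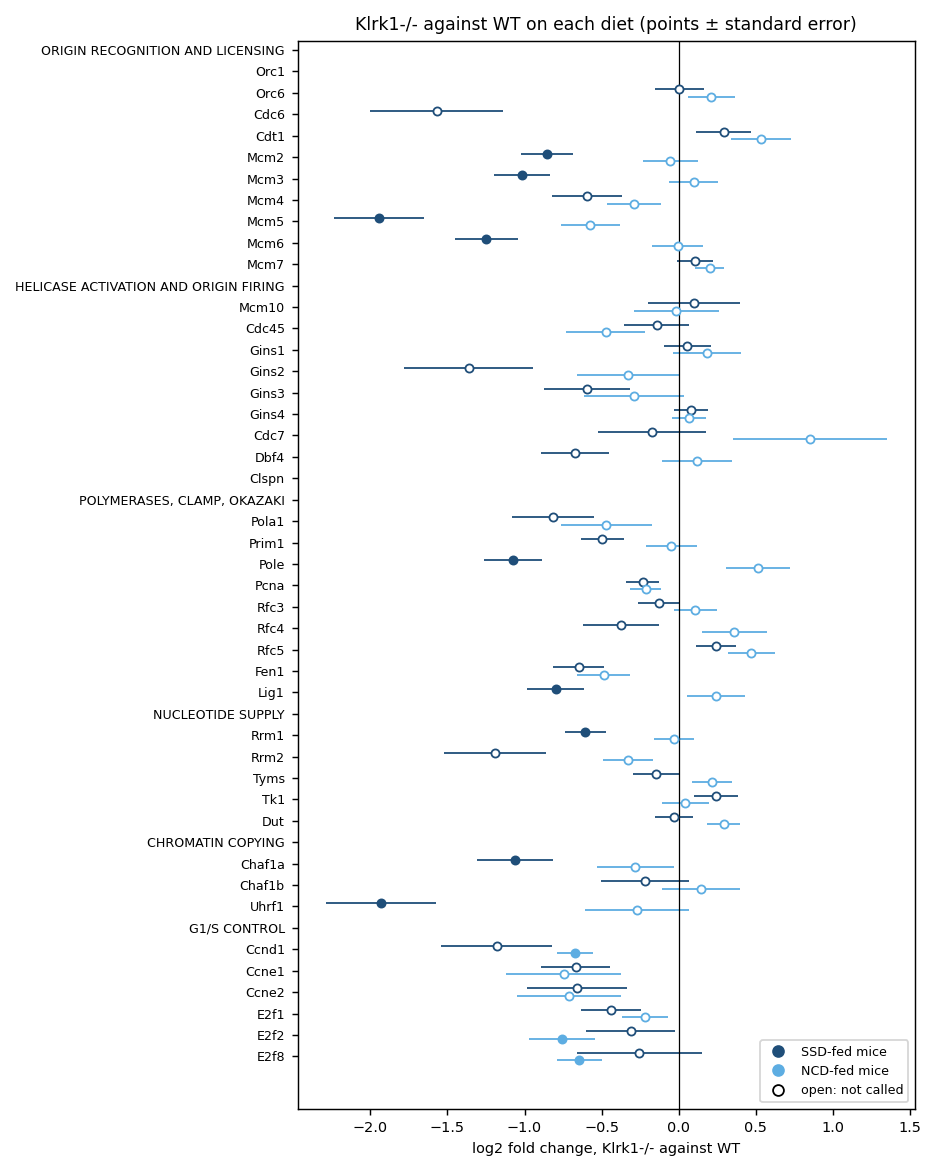
Log2 difference of Klrk1-/- against WT mice (x axis, points ± standard error) for every member by role, on SSD (dark blue) and NCD (light blue), with filled points for called members. Filled SSD points all lie left of 0, from -0.61 for Rrm1 to -1.94 for Mcm5, and the filled NCD points are Ccnd1, E2f2 and E2f8.

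On NCD the called members were 3 G1/S genes, all lower in Klrk1-/- mice. Of 39 members tested, 3 were called lower, where 2.87% of all genes were, and 0 higher, where 2.92% were. The count of members higher was 0 by limma, edgeR and DESeq2, with 4, 5 and 4 higher and 5, 6 and 5 lower at an unadjusted p under 0.05. Mcm5, at 30.1 ± 2.40 against 45.5 ± 6.34, was apart between genotypes but not called (-0.57, adjusted p = 0.0634). Ccnd1 was at 327 ± 42.9 (SD, n = 4) against 521 ± 50.7 (SD, n = 4) normalized counts, a log2 difference of -0.67 (SE 0.12, limma adjusted p = 0.00413). E2f8, at 71.8 ± 6.25 against 113 ± 15.4, differed by -0.65 (SE 0.15, adjusted p = 0.0155), and E2f2, at 26.4, 28.6, 27.4 and 25.8 against 32.6 to 55.5, by -0.76 (SE 0.21, adjusted p = 0.0365). All 3 had the genotypes apart, with an exact permutation p of 0.0286, the smallest that 4 against 4 mice can give.

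Without Klrk1-/- NCD mice 2 and 3, Ccnd1 stayed called (log2 difference -0.72, limma adjusted p = 0.0373), while E2f8 (-0.75, adjusted p = 0.0716) and E2f2 (-0.81, adjusted p = 0.203) did not. Without Klrk1-/- NCD mouse 4, 1 member was called, E2f8. The E2f2 call was the least stable, kept in 7 of 16 alternatives and lost without any of WT NCD mice 1, 2 and 5 or any of the 4 Klrk1-/- NCD mice, with the replicate block and with no minimum mean. Ccnd1 lost its call also with the replicate block and in a model of all 4 groups, and E2f8 in that model and without WT NCD mouse 3. On NCD the replicate block also left out WT NCD mouse 5 and Klrk1-/- NCD mouse 4. In the E2f2 values of Klrk1-/- SSD mice, mouse 1 stood at 56.0 and the others at 25.7 and 26.6. Summed B and plasma cell markers were higher in Klrk1-/- NCD livers (1778 to 2174 normalized counts, against 544 to 1317 in WT NCD), at 2174 and 2169.8 in Klrk1-/- NCD mice 1 and 4. Of the 8 markers 2 were called higher. Cholangiocyte markers had a median log2 difference of -0.80 on NCD, with 1 of 6 (Krt19) called by limma and 4 at an unadjusted p under 0.05. The part of either cell type in these differences was not tested.

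The change with diet itself differed between genotypes for 3 of 39 members tested, all lower in Klrk1-/- mice: Pole (interaction on the log2 scale -1.59, SE 0.27, limma adjusted p = 0.0121), Mcm6 (-1.24, SE 0.27, adjusted p = 0.034) and Mcm3 (-1.11, SE 0.24, adjusted p = 0.0356). Of all genes, 0.559% were called lower and 0.291% higher, and 0 members were called higher by limma, edgeR or DESeq2. At an unadjusted p under 0.05, 0 members were higher by any of these tools. At that limit 13 members were lower by limma, 10 by edgeR and 10 by DESeq2. Mean Pole was 37.6 ± 8.40 on NCD and 56.2 ± 8.39 on SSD in WT mice, and 53.6 ± 8.26 and 26.04 ± 2.88 in Klrk1-/- mice, so its values moved in opposite directions. Mean Mcm6 was 82.9 ± 12.9 on NCD and 77.9 ± 3.22 on SSD in Klrk1-/- mice, where WT mice went from 83.1 ± 11.9 to 192 ± 52.6. Mcm5 (-1.37, adjusted p = 0.0701), Uhrf1 (-1.66, adjusted p = 0.0958) and Lig1 (-1.04, adjusted p = 0.0641) did not reach the threshold, so a difference between genotypes in their change was not shown. Without Klrk1-/- NCD mice 2 and 3 the values were -1.56 for Pole (adjusted p = 0.0701), -1.26 for Mcm6 (0.146) and -0.96 for Mcm3 (0.217), and none was called. With the replicate block 0 members were called, with Pole at an adjusted p of 0.0556. Without WT NCD mouse 3, WT SSD mouse 4, Klrk1-/- NCD mouse 2 or any Klrk1-/- SSD mouse 1 member was called, Pole, and without WT SSD mouse 5 there were 5. Monocyte and macrophage markers had a median interaction of -0.78, with 1 of 15 above 0. Cd68 was called lower, and 6 were lower at an unadjusted p under 0.05 by limma. Of 7 B and plasma cell markers 1 was called lower, Ighm. Sinusoidal endothelium (median -0.32) and stellate cell markers (median -0.21) each had 1 of 8 above 0. Medians were -0.20 for B and plasma cell and -0.18 for T and NK cell markers. They were above 0 for hepatocyte (0.19), cholangiocyte (0.24), neutrophil (0.75) and erythroid markers (0.78). The part of these cell types in the interaction was not tested.

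Other genes of the same pathway were read from lists of genes outside the 42. Of 44 further replisome and licensing genes tested in WT mice, 5 rose on SSD (Asf1b, Chtf18, Pclaf, Pole2 and Top2a) and 2 fell (Pold2 and Recql4), with a median log2 fold change of 0.08. Of all genes 11.9% were called higher and 7.32% lower, and the higher count was near that share. Pole2, the second subunit of polymerase epsilon, rose by 1.34 on the log2 scale, from a mean of 6.91 to one of 19.1 normalized counts. Its WT NCD mean lay under the minimum of 10, so it could be tested only through the group where it was high. Pold2, a subunit of polymerase delta, fell by 0.83 on the log2 scale. Of 28 further G1/S regulators 4 rose (Ccna2, Cdc25a, Cdkn1a and Cdkn2c) and 2 fell (Cks1b and Lin52), again near those of all genes. Cdkn1a, the CDK inhibitor p21, was among the risers, at a log2 fold change of 2.52 (limma adjusted p = 8.37e-06) from 254 to 499 normalized counts up to 1375 to 2985. Of 13 further nucleotide genes 1 rose (Ctps2) and 1 fell, where 11.9% and 7.32% of all genes were called. The gene that fell, by 0.95, was Shmt1, the cytosolic serine hydroxymethyltransferase.

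Genes of mitosis were read the same way. All 20 tested had positive log2 fold changes with SSD in WT mice and 19 were called, where 11.9% of all genes were, with a median of 2.33. Only in the WT SSD group did all 20 reach the minimum mean of 10, against 14 in WT NCD, 16 in Klrk1-/- NCD and 13 in Klrk1-/- SSD mice, so that some could be tested only through the group where they were high, and 15 were tested with diet in Klrk1-/- mice. Mki67, which encodes the proliferation antigen Ki-67, had 25.3, 41.3, 20.9 and 39.7 normalized counts in WT NCD mice and 788, 162, 154, 387 and 79.2 in WT SSD mice (log2 fold change 2.86, SE 0.53, limma adjusted p = 0.00181). Top2a, the topoisomerase of S phase and mitosis, had 27.7, 41.3, 27.4 and 35.3 against 296, 138, 127, 243 and 59.6 (2.17, adjusted p = 0.00121). In Klrk1-/- mice Mki67 had 54.0, 44.8, 51.0 and 36.9 on NCD and 42.5, 32.1 and 24.9 on SSD. There 0 of 15 mitosis genes were called higher or lower by limma, where 6.54% and 6.6% of all genes were. At an unadjusted p under 0.05, 0 were higher and 2 lower by limma, and DESeq2 called 2 lower. The genotype difference on SSD was -2.77 for Mki67 (adjusted p = 0.041) and -2.59 for Top2a (adjusted p = 0.0188), and 7 of 20 mitosis genes were called lower by limma, 3 by edgeR and 20 by DESeq2, where limma called 1.42% of all genes. The interactions of Mki67 and Top2a were -3.36 (adjusted p = 0.0277) and -2.37 (adjusted p = 0.0452, and 0.0569 by edgeR), and that of Cdkn1a was -2.19 (adjusted p = 0.0181). In the interaction 2 of 19 mitosis genes were called lower by limma, 2 by edgeR and 14 by DESeq2, where limma called 0.559% of all genes. Cdkn1a was already higher in Klrk1-/- than in WT mice on NCD (1.26, adjusted p = 0.00537, and 1.37, adjusted p = 0.039, without Klrk1-/- NCD mice 2 and 3) and was not called between genotypes on SSD (-0.92, adjusted p = 0.108). Without Klrk1-/- NCD mice 2 and 3 the interactions were -3.31 for Mki67 (adjusted p = 0.146), -2.24 for Top2a (adjusted p = 0.215) and -2.29 for Cdkn1a (adjusted p = 0.0783), none of them called, and 0 of 15 mitosis genes were again called with diet in Klrk1-/- mice, with 0 at an unadjusted p under 0.05.

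The WT SSD mice were not alike. Taking the 12 members called higher in WT mice and their median log2 level over the WT NCD mean, mice 1 and 4 stood at 1.37 and 1.36, mice 2 and 3 at 1.01 and 0.90 and mouse 5 at 0.75. These members were chosen for being high on SSD, and over the 39 members of the same table the medians were smaller, at 0.59, 0.32, 0.22, 0.48 and 0.24 for mice 1 to 5. The Klrk1-/- SSD mice stood at 0.06, -0.14 and 0.05 for the 12 and at 0.04, -0.07 and -0.08 for the 39. These medians pass over Ccnd1, Cdt1 and Dbf4, which were called higher with diet in Klrk1-/- mice too. Mice 1 and 4 each had the highest WT SSD value for 6 of the 12 members, and mouse 5 had the lowest for 10. The same 2 mice had the most Mki67 and the highest summed level of 15 monocyte and macrophage markers, 15724 and 10982 normalized counts, where the other WT SSD mice reached 5949 to 7006 and the Klrk1-/- SSD mice 4781 to 5878. Mice 1 and 4 were also the highest WT SSD mice for summed T and NK cell markers (343 and 272, against 182 to 236) and neutrophil markers (292 and 159, against 107 to 139), but not for stellate cell (mouse 1 at 17918 and mouse 2 at 9076), cholangiocyte (mice 1 and 3), sinusoidal endothelium (mice 5 and 3), B and plasma cell (mice 4 and 3) or erythroid markers (mice 3 and 5). In the WT diet comparison 8 of the 15 macrophage markers were called higher, as were 3 of 8 stellate cell and 4 of 8 sinusoidal endothelium markers, where 11.9% of all genes were. Called lower were 4 of 10 hepatocyte, 2 of 7 B and plasma cell and 2 of 6 erythroid markers, where 7.32% of all genes were. No macrophage marker was at 3 reads or fewer throughout a group. Summed hepatocyte markers were lowest in mouse 1, at 1624790, against 1959770 to 2115790 in the other WT SSD mice. Mouse 1 also stood apart as a library: WT SSD pairs that include it had a chi-square per gene against counting noise of 73.2 to 101, and the other pairs 18.8 to 36.1. The part of these cell types in the member levels was not tested.

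**Figure D5:**
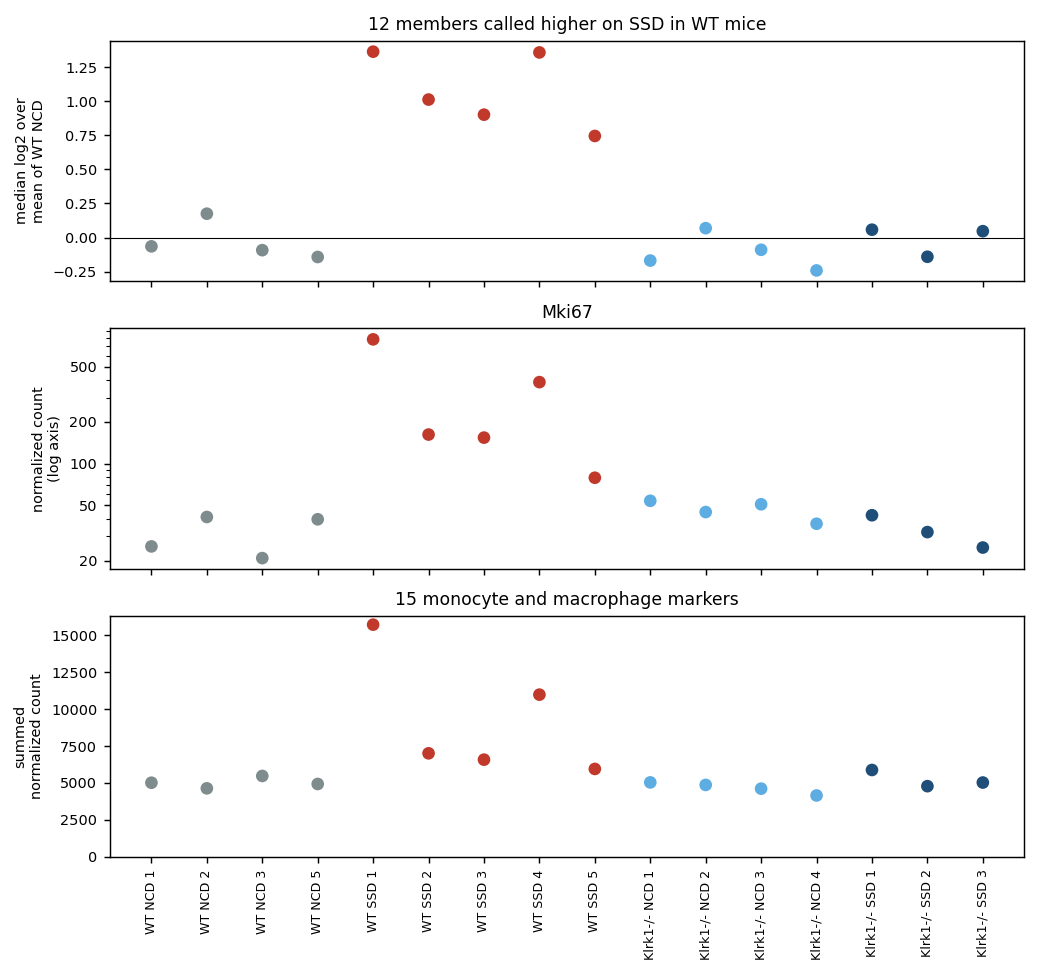
For each of the 16 mice, the median log2 level of the 12 members called higher on SSD in WT mice relative to the WT NCD mean (top), Mki67 normalized counts on a log axis (middle) and the summed normalized counts of 15 monocyte and macrophage markers from 0 (bottom). WT SSD mice 1 and 4 are highest in all 3 panels; the 12 members were chosen by the WT SSD and WT NCD values themselves.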

How the data were processed

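RNA was sequenced from 16 whole mouse livers. According to the study's methods and the submitters' processing notes, reads were checked with FastQC, aligned to GRCm39 with STAR and counted per GENCODE gene with FeatureCounts. The deposited values are a signal per gene, counts divided by 1 factor per mouse, and how the authors made the factors is not given in the sources used here. Dividing by the step of each column gave whole reads for 100% of values (tolerance 0.01 read). The deposited table also holds a GC fraction per gene, which was not used in tests, and a feature length, used for levels per kb. The labels and the methods name different Truseq kits (mRNA and total RNA).

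The members and lists were chosen with earlier results of these data known. Values were tested as log2(normalized count + 1) with limma 3.58.1 (R 4.3.3, trend), for genes with a mean of at least 10 over the mice in the fit, so a fold change is on that scale and understates the change of low genes. Called genes had a Benjamini-Hochberg adjusted p under 0.05 and a fold change over 1.5. For single genes a permutation test over mice (exact, two-sided) was added. The p-values measure the spread between the mice sequenced. Alternatives were edgeR 4.0.16 and DESeq2 1.42.0 on the recovered reads, other pseudocounts and minimums, equal totals, a replicate block, all 4 groups in 1 model, other fold limits and leaving out each mouse; leaving out both Klrk1-/- NCD mice 2 and 3 was added after seeing the data. Between a pair of groups the replicate block kept only mice whose number occurs in both groups. A call lost there can therefore come from fewer mice as well as from the block. The scripts were tested on simulated data. Replicates differed beyond counting noise in all 25 pairs.

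Named genes were, per role, the 2 with the highest mean level, up to 4 called in each genotype comparison or the interaction, those called lower on SSD in WT mice and the 4 with the largest change there. Of the other pathway genes, those named were chosen by adjusted p or with their values in view. The list of S phase checkpoint and repair genes is not reported here.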

Additional observations from a re-analysis of the deposited data

Results flagged for a closer look

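Of 54 groups of 4 or 5 mice tested for a mouse far from the others, 3 had one, where chance gives about 1 in 20. Mcm7 stood at 507 normalized counts in WT SSD mouse 4, against 372 to 402 in the other 4 mice. Mcm10 stood at 2248 in WT SSD mouse 5, against 723 to 1002 in the others, and this mouse is the one that overlapped with the NCD group. Pole stood at 71.1 in WT SSD mouse 4, against 50.7 to 53.8.

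The change with diet differed between WT and Klrk1-/- mice by the interaction test of limma for Pole (-1.59), Mcm6 (-1.24) and Mcm3 (-1.11), on the log2 scale. None of these was called without Klrk1-/- NCD mice 2 and 3 (limma adjusted p = 0.0701, 0.146 and 0.217).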

How the results depend on the processing

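Called counts per setting follow, with the reported count first. With every mouse scaled to the same total, WT diet calls went from 12 higher and 2 lower to 22 and 1, and Klrk1-/- diet calls from 4 and 4 to 7 and 2. In WT mice members near 0 turned sign there, Gins4 from -0.02 to 0.33, Rfc5 from -0.08 to 0.26 and E2f2 from -0.14 to 0.20. A fold limit of 2 gave 7 and 1 in the WT diet comparison, 1 and 1 in the Klrk1-/- diet comparison and 0 lower between genotypes on NCD. DESeq2 gave 1 lower in the WT diet comparison, 14 lower between genotypes on SSD (9 reported, 7 by edgeR) and 5 lower in the interaction (3 reported). All 4 groups in 1 model gave 14 lower on SSD and 1 lower on NCD (3 reported). A minimum mean of 50 gave 5 lower on SSD, and no minimum gave 1 in the interaction. Leaving out both Klrk1-/- NCD mice 2 and 3 gave 1 lower on NCD and 0 in the interaction. The cause was not tested, except that a higher minimum tests fewer genes and a higher fold limit is stricter by construction.

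Leaving out each mouse gave 11 to 14 higher and 1 to 2 lower in the WT diet comparison, 3 to 5 higher and 2 to 4 lower in the Klrk1-/- diet comparison, and, in lower calls, 1 to 13 between genotypes on SSD, 1 to 3 on NCD and 1 to 5 in the interaction. Higher calls stayed at 0 in the genotype comparisons and the interaction. With the replicate block, 11 and 2 were called in the WT diet comparison, 4 and 4 in the Klrk1-/- one, 9 lower on SSD (7 of them among those reported), 1 lower on NCD and 0 in the interaction, where Pole had an adjusted p of 0.0556. Outside the interaction this setting also left out mice whose number was missing from the other group. Deviations from the group means of mice with the same number had correlations of -0.133 to 0.246. With 3 to 5 mice per group these values cannot show whether the numbers pair the mice. For the 18 named members in the WT diet comparison, 283 values under the alternatives kept their direction and side of an adjusted p of 0.05, 19 lost it, 9 gained it and 8 turned sign. Beside the 3 turns above, 5 came from leaving out 1 mouse, which gave -0.17 to 0.019 for Rfc5 (above 0 without WT NCD mouse 1), -0.017 to 0.082 for Dut (0.04 reported, below 0 without WT NCD mouse 2 or WT SSD mouse 2) and -0.072 to 0.054 for Gins4 (above 0 without WT NCD mouse 1 or WT SSD mouse 5). Over all comparisons, and leaving the fold limit at 1.5, 20 of the 37 called member results lost their call in 1 or more alternatives (119 losses in 648), 8 of 9 between genotypes on SSD and 3 of 3 in the interaction. Depth limits Orc1, Clspn and Cdc6, and 3 to 5 mice per group limit the rest.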
